A study of Homo sapiens and Mus musculus with 8 samples.

Results

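B16N mouse melanoma cells exposed to UV for 2 weeks were compared with untreated B16N cells by RNA-seq. Every gene with a symbol and a p-value in the authors' comparison of these samples was taken, which gave 14648 genes of the 15966 that the 3 mouse comparisons of the study hold between them. The study also held B16N cells after 5 weeks of UV, a B16N clone carrying tagged Orai1, and the human melanoma lines WM983 and UACC257 with and without UV, with 1 sample per condition. The UV cells were labelled wild type, UV exposed, at week 2 (or week 5), and the control cells wild type, untreated, at day 0. Time in culture and UV exposure therefore cannot be told apart. All B16N cells were kept in DMEM with fetal bovine serum, while the UV's dose, wavelength and schedule are not given in the sources used here. Each group was a single library, so no difference below has a replicate check, and a p-value compares these libraries and not the conditions. The table holds changes and no levels, so a level in each sample cannot be shown and the depth is unknown.

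Melanoma cells such as B16N descend from melanocytes, the pigment cells that answer UV in skin. In melanocytes, signals from the melanocortin receptor Mc1r raise cAMP and, through the factor Mitf, the genes for melanin synthesis. Melanin is made inside melanosomes, organelles related to lysosomes, which mature and move along the cytoskeleton to the cell edge. UV also forms lesions in DNA that nucleotide excision repair removes, and it can activate p53, inflammatory signalling and stress kinases. Melanoma cells can further shift between a differentiated, pigmented state and a dedifferentiated, invasive one.

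A change is the log2 fold change of UV over control in the authors' deposited table, with its sign turned since the table has the control on top. Its standard error (SE) is the change divided by the deposited test statistic. A gene was called when its Benjamini-Hochberg adjusted p over the 14648 genes was under 0.05. Of all genes, 1124 (7.67%) were called, 458 (3.13%) higher and 666 (4.55%) lower after UV. Only 51 (0.348%) of these changed at least 2-fold, 33 higher and 18 lower. Many symbols had exactly the values of another symbol, so the table does not tell to which gene the value belongs. These 4233 symbols, in 1119 sets, were left out below, and the remaining 10415 genes had values of their own. All list counts, and words such as every or none of a list, are for genes with values of their own. Among these, 936 (8.99%) were called, 386 (3.71%) higher and 550 (5.28%) lower, with a median change over all 10415 genes of 0.020. The counts of gene lists below are to be read against these shares. The changes were small: the median called rise was 0.52 and the median called fall was -0.42 on the log2 scale, and 711 of the 936 were under 1.5-fold. At the edge of the call, Foxd2os (0.58, SE 0.20) lay just inside and Baz1b (0.57, SE 0.20) just outside by the authors' deposited table.

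**Figure D1:**
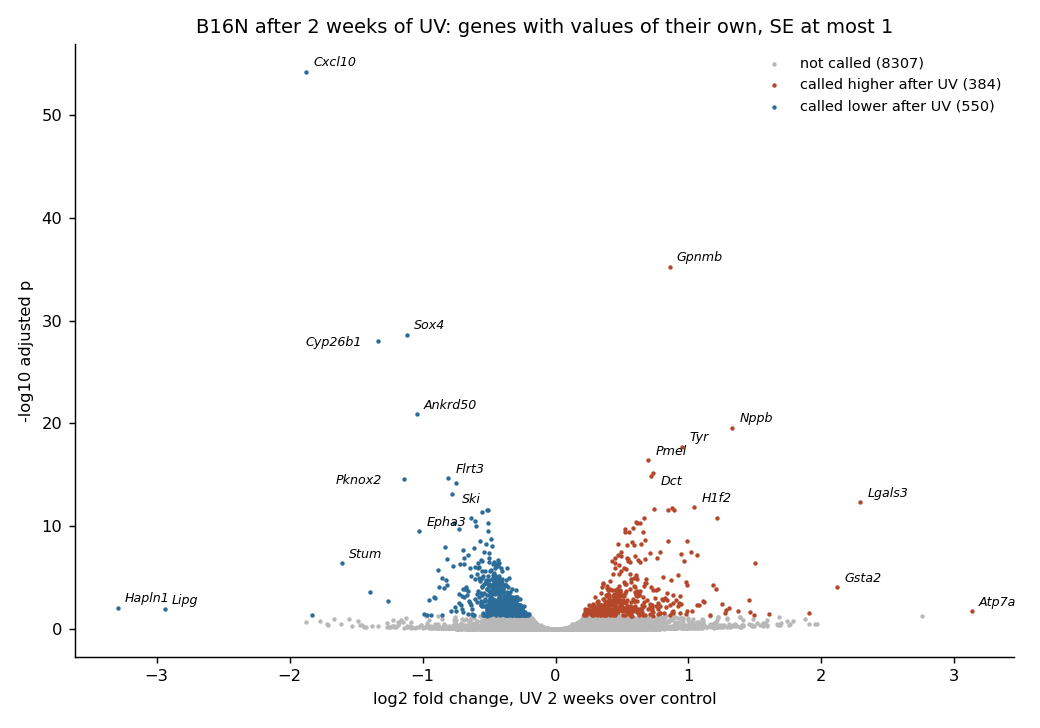
Change of each gene with values of its own and an SE of at most 1 (x axis, log2 fold change of UV 2 weeks over control) against -log10 of its adjusted p (y axis). Cxcl10 has the smallest adjusted p among the falls and Gpnmb among the rises, and most called genes lie within 1 log2 unit of 0.

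Markers of the labelled cell type were nearly all present. In bulk RNA, fewer cells of a type and less RNA per cell cannot be told apart. Of 10 melanocyte lineage markers, 9 had a row and 8 had values of their own, while of 53 markers of 6 other cell types (keratinocytes, fibroblasts, immune cells, endothelial cells, Schwann and neural crest cells, and skeletal muscle) 23 had a row and 8 had values of their own. A row shows that a gene had a value in this comparison, not its level. Of those 8, S100b, a gene also expressed by pigment cells, was the single one called, and it was higher. Of the 8 melanocyte genes 4 were called, all of them higher, and Ednrb had no row.

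Short genes tended to be higher and long genes lower in the UV library than in the control library. Length was taken from the human gene of the same name, as the longest protein-coding transcript in GENCODE 29, which was found for 8483 of the 10415 genes (81.4%), and it stands in for that of the mouse. In the shortest of 10 length classes, up to 1463 bases, 98 of 850 genes (11.5%) were called higher and 6 (0.706%) lower. In the longest, from 7647 bases, 11 of 849 (1.30%) were called higher and 113 (13.3%) lower. Among genes of SE at most 0.3, the median change was 0.18 in the shortest class and -0.21 in the longest at 2 weeks, and 0.11 and -0.043 for the same genes at 5 weeks. Spearman's rank correlation between length and change was -0.39 across these 5302 genes, -0.15 at 5 weeks and -0.19 for the unexposed Orai1 clone. The clone, set against the same control library, had medians of 0.14 in the shortest class and -0.16 in the longest for these genes. The genes share their libraries and are not replicates. Many lists below hold mostly short or mostly long genes, and the part of length in their results was not tested. With the median change of every length class set to 0, 561 of the 8483 genes were called, 275 higher and 286 lower (49.0% higher), against 307 higher and 552 lower (35.7% higher) for the same genes as they stand, and 455 were called both ways. For most lists whose calls changed with length set to 0 in this way, those counts stand beside its own, and they hold newly called genes as well as lost ones. No length count is given for lists in which fewer than 4 in 5 of genes had a length.

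**Figure D2:**
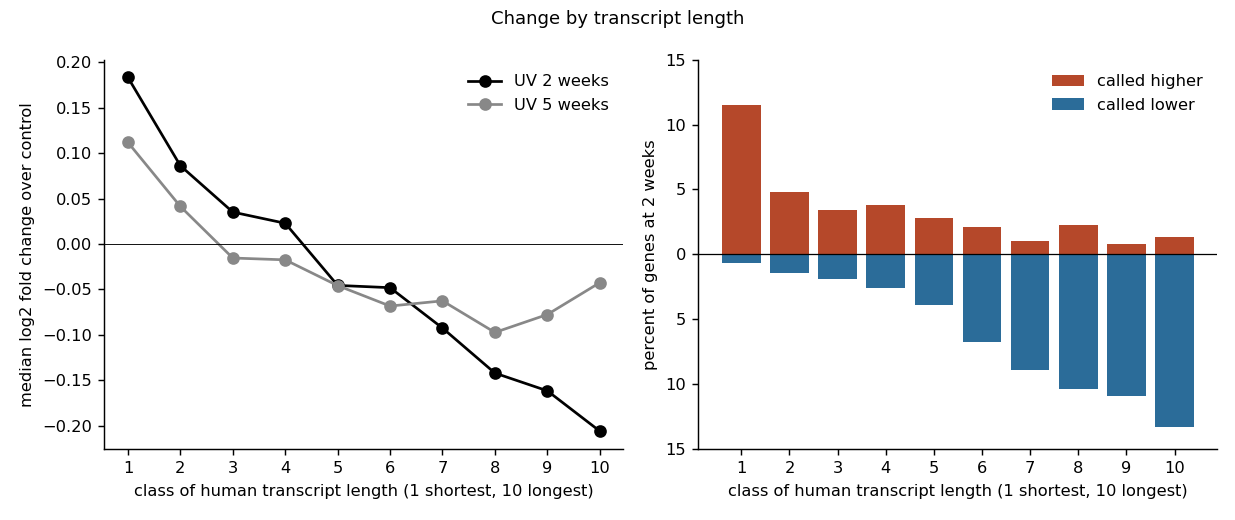
Left, median log2 fold change over control by class of human transcript length (class 1 shortest, class 10 longest) for genes of SE at most 0.3 at 2 weeks of UV, with the same genes at 5 weeks. Right, percent of the genes of each class called higher (up) or lower (down) at 2 weeks. The 2-week median is 0.18 in class 1 and -0.21 in class 10.

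Genes with the largest rises were a mixed group of secreted, membrane and stress-response genes. The galectin gene Lgals3, which encodes a secreted lectin that binds sugar chains, rose 4.90-fold by the authors' deposited table (2.29, SE 0.28, adjusted p = 4.97e-13). Nppb, which encodes a natriuretic peptide, rose 2.51-fold by the authors' deposited table (1.33, SE 0.13, adjusted p = 2.51e-20). After 5 weeks it was 0.034 (SE 0.23) by the authors' deposited table. Among rises, Nppb had the largest test statistic after Gpnmb. The copper pump gene Atp7a (3.13, SE 0.97) and the glutathione transferase gene Gsta2 (2.12, SE 0.44) also changed by more than 2 log2 units in the authors' deposited table, Atp7a with a wide error. Smaller rises by the authors' deposited table were the secreted phospholipase gene Pla2g2e (1.91, SE 0.61), the perlecan gene Hspg2 (1.60, SE 0.52), the complement gene C2 (1.49, SE 0.50), the mRNA-binding protein gene Cpeb1 (1.28, SE 0.38), the kinase gene Pdk1 (1.28, SE 0.41) and the aminopeptidase gene Anpep (1.25, SE 0.33). Further genes carry predicted or clone names: A130040M12Rik (1.498, SE 0.25), Gm5152 (1.46, SE 0.46) and Gm17778 (1.31, SE 0.37) per the authors' deposited table. The hypoxia-inducible gene Car9, whose product hydrates carbon dioxide, was called higher from the authors' deposited table, with an SE above 1 (adjusted p = 6.25e-04). So was H2-DMb1, of the antigen presentation machinery, also from the authors' deposited table (adjusted p = 0.0359). By test statistic the leading rises also held the secreted peptide gene Enho (0.73, SE 0.082) and the mitochondrial import gene Timm8b (0.74, SE 0.094) in the authors' deposited table.

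Among the falls, a chemokine, a retinoid enzyme and several transcription factors led. Cxcl10, an interferon-inducible chemokine, was 3.67-fold lower than in control cells by the authors' deposited table (-1.87, SE 0.12, adjusted p = 6.17e-55). Cyp26b1, which degrades retinoic acid, stood at -1.34 (SE 0.11), Sox4, a transcription factor of progenitor cells, at -1.12 (SE 0.093), and the homeobox gene Pknox2 at -1.14 (SE 0.13) in the authors' deposited table, and each of these fell with an adjusted p of at most 2.59e-15. The link protein gene Hapln1 (-3.29, SE 0.93), which ties hyaluronan to proteoglycans, and the endothelial lipase gene Lipg (-2.94, SE 0.86) fell most by the authors' deposited table, both with wide errors. Also lower by the authors' deposited table were the aggrecanase gene Adamts5 (-1.39, SE 0.30), the histone deacetylase gene Hdac9 (-1.83, SE 0.62), Stum (-1.61, SE 0.27), the ubiquitin ligase gene Neurl3 (-1.26, SE 0.31), Ankrd50 (-1.04, SE 0.10), the ephrin receptor gene Epha3 (-1.03, SE 0.14), the cyclin-dependent kinase gene Cdk14 (-0.97, SE 0.33) and the cholesterol exporter gene Abca1 (-0.95, SE 0.23). With length set to 0, Hdac9 and Cdk14 were no longer called. The falls with the largest test statistics also held the adhesion receptor gene Flrt3 (-0.81, SE 0.092), Klhl13 (-0.75, SE 0.087), which encodes a ubiquitin ligase adaptor, the SMAD repressor gene Ski (-0.78, SE 0.093), the ferritin pseudogene Ftl1-ps2 (-0.52, SE 0.066) and the translation initiation gene Eif4g2 (-0.51, SE 0.065) by the authors' deposited table. Reads of a ferritin pseudogene can also come from its parent gene.

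Every melanin enzyme gene was higher, as were many melanosome genes. All 3 melanin enzymes were called higher: the rate-limiting tyrosinase gene Tyr (0.95, SE 0.099), the dopachrome tautomerase gene Dct (0.72, SE 0.081) and Tyrp1 (0.39, SE 0.084), which acts late in eumelanin synthesis, per the authors' deposited table. In the list of melanosome structure and transport, 7 of 17 members were called higher and 1 lower, with a median of 0.55 (7 higher and 0 lower with length set to 0). Pmel, which forms the fibrils on which melanin is laid down, stood at 0.70 (SE 0.075) and the glycoprotein gene Gpnmb at 0.86 (SE 0.065) by the authors' deposited table. The melanosomal transporter genes Slc45a2 (0.84, SE 0.11) and Slc24a5 (0.57, SE 0.11), the biogenesis factor gene Bloc1s1 (0.98, SE 0.19) and Mlph (0.46, SE 0.14), whose product links melanosomes to myosin, were further rises by the authors' deposited table. Atp7a, which brings copper to tyrosinase, was the seventh. The cystine transporter gene Slc7a11 (-0.71, SE 0.19) was the single member called lower by the authors' deposited table. Rises were thus found from the fibril protein to the enzymes, the ion transporters and the transport adaptor. The melanosomal antigen gene Mlana (0.0077, SE 0.091) and the small GTPase gene Rab27a (0.55, SE 0.66), the partner of Mlph, did not pass per the authors' deposited table.

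Regulators of pigment cells changed less evenly. Of this list 3 of 14 members were called higher and 1 lower, with a median of 0.25 (3 higher and 0 lower with length set to 0). Mc1r, the melanocortin receptor, rose (0.41, SE 0.079, adjusted p = 1.95e-05), as did the prostaglandin D synthase gene Hpgds (0.63, SE 0.18) and the MAPK phosphatase gene Dusp4 (0.60, SE 0.13) in the authors' deposited table. The transcription factor gene Zeb2 (-0.46, SE 0.094) fell in the authors' deposited table, but was not called with length set to 0. The master regulator Mitf (0.38, SE 0.51) did not pass in the authors' deposited table with an error wider than its change, and the lineage factor gene Pax3 (-0.0084, SE 0.084) did not pass either.

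**Figure D3:**
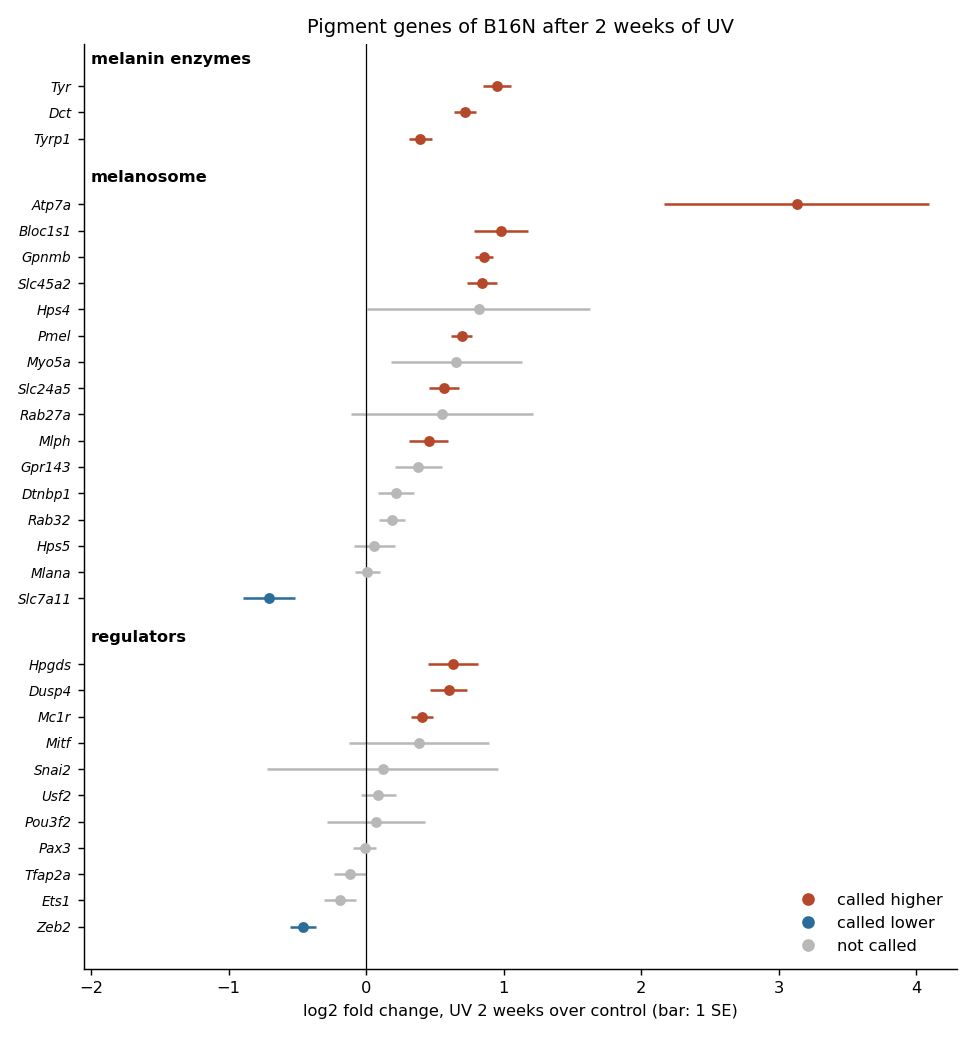
Log2 fold change of UV 2 weeks over control with 1 SE (x axis) for the pigment genes with values of their own and an SE of at most 1 (y axis), grouped as melanin enzymes, melanosome genes and regulators. The 3 enzymes lie between 0.39 and 0.95, and most melanosome genes lie right of 0, with Slc7a11 to the left.

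Genes of the lysosome, an organelle of the same family as the melanosome, were higher in part. Of lysosomal enzymes, 5 of 30 members were called higher and 1 lower, with a median of 0.19, and with length set to 0 the counts were 4 and 0. The cathepsin genes Ctsd (0.52, SE 0.072) and Ctsb (0.88, SE 0.11), the mannosidase gene Man2b1 (0.77, SE 0.22), the peptidase gene Tpp1 (0.29, SE 0.080) and the cholesterol carrier gene Npc2 (0.25, SE 0.072) rose, and the sulfatase gene Ids (-0.48, SE 0.14) fell by the authors' deposited table. Of lysosomal membrane proteins and subunits of the proton pump (V-ATPase), 3 of 30 members were called higher and 0 lower, with a median of 0.12 (2 higher and 0 lower with length set to 0). The 3 were pump subunits, Atp6v0b (0.79, SE 0.12), Atp6v1f (0.55, SE 0.078) and Atp6v1g1 (0.38, SE 0.10), in the authors' deposited table, and Atp6v1g1 was not called with length set to 0. Of autophagy genes, 1 of 29 members was called higher and 4 lower, with a median of -0.051 (1 higher and 2 lower with length set to 0), among them the mitophagy receptor gene Bnip3 (0.91, SE 0.23), which rose, and Ulk2 (-0.55, SE 0.17), Atg4d (-0.44, SE 0.14), Uvrag (-0.37, SE 0.081) and Atg12 (-0.26, SE 0.090), which fell, per the authors' deposited table.

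S100 proteins, which are small Ca2+ binders, and the membrane-binding annexins were grouped with galectins. Of this list, 6 of 17 members were called higher and 0 lower, with a median of 0.49. Besides Lgals3, the authors' deposited table called S100a1 (0.99, SE 0.15), S100a6 (0.98, SE 0.33), the melanoma serum marker gene S100b (0.77, SE 0.12), Lgals1 (0.52, SE 0.073) and S100a10 (0.49, SE 0.11) higher. All 6 lie in the shortest length class, and with length set to 0, 4 were called, without S100a6 and S100a10.

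Called genes of glucose use were all higher, and those of a list of the citric acid cycle and linked enzymes went both ways. In glycolysis 5 of 19 members were called higher and 0 lower, with a median of 0.35, and 4 were called higher with length set to 0, namely Pdk1, Pkm, Slc2a1 and the hexokinase gene Hk2. The called members in the authors' deposited table were Pdk1, whose kinase holds back pyruvate dehydrogenase, the pyruvate kinase gene Pkm (0.61, SE 0.083), the glucose transporter gene Slc2a1 (0.50, SE 0.15), the aldolase gene Aldoa (0.35, SE 0.096) and the isomerase gene Tpi1 (0.27, SE 0.082). Hk2, which opens the pathway, stood at 0.15 (SE 0.10) and the lactate dehydrogenase gene Ldha at 0.22 (SE 0.085) in the authors' deposited table, and neither was called there. Among hypoxia targets 5 of 18 members were called higher and 0 lower, with a median of 0.20. They were Car9, Bnip3, the mitochondrial protein gene Higd1a (0.84, SE 0.19), the oxidoreductase gene Ero1a (0.56, SE 0.094) and the mTORC1 inhibitor gene Ddit4 (0.47, SE 0.13), with the factor itself, Hif1a (-0.024, SE 0.19), not passing in the authors' deposited table. With length set to 0, 5 members were called higher, among them Bnip3, Higd1a and Ero1a but not Ddit4, and no length was found for Car9.

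Of the respiratory chain, nuclear genes were called and mostly higher, and no mitochondrially encoded gene was called. In complex I, 6 of 30 members were called higher and 0 lower, with a median of 0.33, with the largest rises for Ndufb8 (0.84, SE 0.20), Ndufa2 (0.76, SE 0.16), Ndufv2 (0.65, SE 0.21) and Ndufb11 (0.54, SE 0.15) by the authors' deposited table. In complexes III to V, 7 of 32 members were called higher and 2 lower, with a median of 0.24. The ATP synthase gene Atp5l (1.18, SE 0.24), the complex III genes Uqcrq (0.89, SE 0.23) and Uqcr10 (0.83, SE 0.23) and the cytochrome oxidase genes Cox7b (0.55, SE 0.089), Cox4i1 (0.38, SE 0.089) and Cox8a (0.37, SE 0.098) rose, and Atp5g3 (-0.42, SE 0.12) and Uqcrfs1 (-0.24, SE 0.080) fell by the authors' deposited table. These subunits come mostly from short genes, and with length set to 0 the calls were 3 higher and 0 lower in complex I, and 6 higher and 1 lower in the other complexes. Atp5g3 and Uqcrfs1 were not called then. Of the mitochondrially encoded genes, none of 13 was called, with 0 higher and 1 lower at an unadjusted p under 0.05, and a median of -0.084. There were 2 called falls with length set to 0. Mitochondrial ribosomal proteins held 5 of 60 members higher and none lower (4 and 0 with length set to 0), led by Mrps33 (0.55, SE 0.16), Mrpl57 (0.54, SE 0.16) and Mrpl13 (0.50, SE 0.15) per the authors' deposited table. In the import and quality control list, 3 of 51 members were called higher and 1 lower, with a median of 0.040 (3 higher and 2 lower with length set to 0), with Timm8b, Tomm5 (0.63, SE 0.14) and Timm10b (0.61, SE 0.18) higher and the chaperone gene Hspa9 (-0.26, SE 0.072) lower in the authors' deposited table. The citric acid cycle list also held linked enzymes and carriers outside the cycle. Of this list, 2 of 21 members were called higher and 3 lower, with a median of -0.068 (2 higher and 1 lower with length set to 0). The pyruvate carrier gene Mpc2 (0.50, SE 0.12) and the succinate dehydrogenase gene Sdhb (0.28, SE 0.086) rose, and Idh1 (-0.41, SE 0.12), Dld (-0.32, SE 0.10) and Me1 (-0.32, SE 0.11) fell by the authors' deposited table.

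Chaperones of the endoplasmic reticulum were higher in part, and no heat shock gene of the cytosol was called higher. In the unfolded protein response list, 6 of 28 members were called higher and 1 lower, with a median of 0.061 (4 higher and 1 lower with length set to 0). The chaperone gene Hspa5 (0.43, SE 0.071), the disulfide isomerase gene Pdia3 (0.39, SE 0.081), Sdf2l1 (0.46, SE 0.099), the J-domain gene Dnajb11 (0.38, SE 0.11) and the translocon gene Ssr2 (0.26, SE 0.081) rose beside Ero1a, and Ssr1 (-0.39, SE 0.095) fell per the authors' deposited table. Ssr2, Sdf2l1 and Ssr1 were not called with length set to 0. Among heat shock proteins, 0 of 28 members were called higher and 4 lower, with a median of -0.11 (0 higher and 3 lower with length set to 0), the called falls being Hsph1 (-0.70, SE 0.11), Hspa9 (-0.26, SE 0.072), St13 (-0.25, SE 0.081) and Hspa4 (-0.23, SE 0.078) per the authors' deposited table. In the integrated stress response, which raises amino acid supply through Atf4, 0 of 13 members were called higher and 2 lower, with a median of 0.020 (1 higher and 2 lower with length set to 0). Atf4 stood at -0.28 (SE 0.095) and its target Trib3 at -0.66 (SE 0.14) in the authors' deposited table, and both were called lower. In this list 1 fall was called at an adjusted p under 0.01, and 1 with the median change of all genes set to 0.

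Genes that Atf4 is known to drive were lower in part. Of the serine, one-carbon and amino acid enzymes, 0 of 20 members were called higher and 3 lower, with a median of -0.071. The folate enzyme gene Mthfd2 (-0.61, SE 0.081), the serine synthesis gene Psat1 (-0.42, SE 0.071) and the proline synthesis gene Aldh18a1 (-0.39, SE 0.10) fell by the authors' deposited table. Among amino acid transporters, 1 of 17 members was called higher and 3 lower, with a median of 0.16 (1 higher and 1 lower with length set to 0). The falls were Slc38a2 (-0.55, SE 0.071), Slc7a5 (-0.32, SE 0.081) and Slc7a11, and the glutamine carrier gene Slc1a5 (0.67, SE 0.11) rose per the authors' deposited table. Slc38a2 was the single transporter called lower with length set to 0. None of the 33 aminoacyl tRNA synthetases was called (median 0.026), with 2 higher and 0 lower at an unadjusted p under 0.05.

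Called ribosomal protein genes were higher and most called translation factors lower. In the cytosolic ribosome, 7 of 60 members were called higher and 0 lower, with a median of 0.12, among them Rpl35 (0.87, SE 0.28) and Rps19 (0.57, SE 0.14) in the authors' deposited table. The counts with length set to 0 were 4 higher and 2 lower. Ribosomal protein genes have many pseudogene copies that can share reads, so single members are uncertain. Among translation factors, 1 of 29 members was called higher and 4 lower, with a median of -0.067 (0 higher and 4 lower with length set to 0), and the 4 falls were called with length set to 0 as well. They were Eif4g2, Eif2s2 (-0.50, SE 0.079), a subunit of the factor that brings the first tRNA, the poly(A)-binding protein gene Pabpc1 (-0.46, SE 0.084) and the release factor gene Etf1 (-0.43, SE 0.071) in the authors' deposited table, while Eef1b2 (0.27, SE 0.073) rose. Ribosome biogenesis held 3 of 36 members lower and none higher, the nucleolar genes Ncl (-0.50, SE 0.10), Ddx21 (-0.35, SE 0.087) and Npm1 (-0.30, SE 0.10) by the authors' deposited table. The proteasome held 3 of 27 higher and none lower, Psma7 (0.49, SE 0.14), Psmd8 (0.41, SE 0.087) and Psmd9 (0.34, SE 0.12) per the authors' deposited table, and with length set to 0 the counts were 1 higher and 1 lower.

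Immediate early genes, which growth and stress signals switch on within minutes, were higher in part, while some kinase genes of the same pathways were lower. Of immediate early genes, 4 of 23 members were called higher and 0 lower, with a median of 0.27 (5 higher and 0 lower with length set to 0). The AP-1 genes Fos (1.46, SE 0.36) and Junb (0.50, SE 0.14), the nuclear receptor gene Nr4a3 (1.38, SE 0.42) and Ier2 (0.45, SE 0.11) rose, and Jun (0.15, SE 0.091) and Myc (-0.14, SE 0.11) did not pass in the authors' deposited table. Fos, Junb, Nr4a3 and Ier2 were also called with length set to 0. Of MAPK output and feedback genes, 2 of 22 members were called higher and 0 lower, with a median of 0.13, Dusp4 and Phlda1 (0.28, SE 0.079) by the authors' deposited table. Of the MAPK and PI3K core, 0 of 38 members were called higher and 8 lower, with a median of -0.16. Among the lower members were the GTPase-activating gene Rasa1 (-0.56, SE 0.15), the PI3K regulatory gene Pik3r1 (-0.56, SE 0.14), the stress kinase gene Map2k4 (-0.47, SE 0.087) and the PI3K catalytic gene Pik3cb (-0.39, SE 0.13) per the authors' deposited table. Of the list, 3 falls and 0 rises were called with length set to 0. Among receptor tyrosine kinases, 0 of 15 members were called higher and 3 lower, with a median of 0.28 (0 higher and 2 lower with length set to 0), with Epha3, Erbb3 (-0.69, SE 0.16) and Axl (-0.37, SE 0.11) lower in the authors' deposited table, Axl not so with length set to 0.

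Developmental signalling genes were lower wherever they were called, with few exceptions. In the Wnt list, 0 of 21 members were called higher and 5 lower, with a median of -0.35. The repressor gene Tcf7l1 (-0.84, SE 0.18), the frizzled receptor genes Fzd1 (-0.50, SE 0.16), Fzd2 (-0.43, SE 0.12) and Fzd7 (-0.36, SE 0.090) and the co-receptor gene Lrp6 (-0.49, SE 0.10) fell, and beta-catenin, Ctnnb1 (0.22, SE 0.11), did not pass in the authors' deposited table. With length set to 0, 3 were called lower and 1 higher. In the TGF-beta and BMP list, 0 of 22 members were called higher and 4 lower, with a median of -0.20 (1 higher and 2 lower with length set to 0): the ligand gene Tgfb2 (-0.92, SE 0.22), Ski, the receptor gene Acvr1 (-0.51, SE 0.17) and Smad4 (-0.34, SE 0.098) by the authors' deposited table. In the Notch and Hedgehog list, 1 of 21 members was called higher and 3 lower, with a median of -0.14 (1 higher and 2 lower with length set to 0), with the coactivator genes Maml3 (-0.85, SE 0.16) and Maml1 (-0.42, SE 0.12) and Neurl3 lower and the protease gene Adam10 (0.57, SE 0.16), which sheds Notch, higher per the authors' deposited table. With length set to 0, Tgfb2 and Ski stayed called in the TGF-beta list and Acvr1 and Smad4 did not. In the Hippo list, 0 of 28 members were called higher and 5 lower, with a median of -0.17 (0 higher and 3 lower with length set to 0), namely Tgfb2, the kinase gene Lats2 (-0.60, SE 0.10), Ajuba (-0.56, SE 0.092), Axl and the coactivator gene Yap1 (-0.26, SE 0.072) in the authors' deposited table.

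Called factors of phenotype switching and development were all lower, with fewer calls when length was set to 0. In the EMT and phenotype-switch list, 0 of 15 members were called higher and 6 lower, with a median of -0.056 (0 higher and 2 lower with length set to 0). Besides Sox4 these were Foxc1 (-0.65, SE 0.11), Zeb2, Tcf3 (-0.39, SE 0.11), Axl and Sox11 (-0.27, SE 0.086) in the authors' deposited table, and Sox4 and Foxc1 were the members still called with length set to 0. The wider list of SOX, homeobox and developmental factors held 4 of 31 members lower and none higher (2 lower with length set to 0, Sox4 and Pknox2), with Pknox2 and Foxp1 (-0.49, SE 0.14) beside Sox4 and Sox11 by the authors' deposited table. Of nuclear receptors and retinoid enzymes, 0 of 20 members were called higher and 4 lower, with a median of -0.16 (0 higher and 3 lower with length set to 0). Beside Cyp26b1, the retinoic acid receptor gene Rarg (-0.50, SE 0.13), Nr2f2 (-0.47, SE 0.11) and the metabolic regulator gene Esrra (-0.40, SE 0.11) fell in the authors' deposited table, and Nr2f2 was not called with length set to 0.

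Every called gene of NF-kB and chemokine signalling was lower. In the NF-kB and chemokine list, 0 of 25 members were called higher and 5 lower, with a median of -0.29, and the same 5 genes were called with length set to 0. Cxcl10 was joined by the inhibitor gene Nfkbie (-0.91, SE 0.22), the colony-stimulating factor gene Csf1 (-0.82, SE 0.17) and the NF-kB subunit genes Relb (-0.75, SE 0.23) and Nfkb1 (-0.43, SE 0.12), and Rela (-0.47, SE 0.27) did not pass per the authors' deposited table. Interferon response genes held 2 of 38 members lower and none higher, Cxcl10 and the kinase gene Jak1 (-0.36, SE 0.095) in the authors' deposited table. The interferon-stimulated gene Isg15 (-0.86, SE 0.34) did not pass by the authors' deposited table. Among antigen presentation genes H2-DMb1 and the class I gene H2-D1 (0.73, SE 0.21) were called higher of 13 members, and B2m (-0.048, SE 0.11) did not pass per the authors' deposited table. Some H2 genes are alike in sequence, so reads can be split between those. In the complement list C2 was the single called gene of 12, and it was not called with length set to 0. No length was found for H2-DMb1 and H2-D1.

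Redox and metal genes were called in both directions. Of NRF2 targets, 4 of 27 members were called higher and 2 lower, with a median of -0.0089. The lipid peroxidase gene Gpx4 (0.59, SE 0.12), Prdx5 (0.55, SE 0.17), Cbr3 (0.53, SE 0.12) and the superoxide dismutase gene Sod1 (0.36, SE 0.086) rose, and Slc7a11 and Me1 fell in the authors' deposited table. The defining target Hmox1 (0.054, SE 0.21) and the glutathione synthesis genes Gclm (-0.19, SE 0.21) and Gclc (0.090, SE 0.20) did not pass by the authors' deposited table. With length set to 0 the split of this list was 2 higher and 3 lower. Among glutathione transferases Gsta2 was the single called gene of 15, and copies of the Gsta family can share reads. Of metallothionein, copper, zinc and iron genes, 1 of 30 members was called higher and 2 lower, with a median of -0.0075 (1 higher and 1 lower with length set to 0): Atp7a higher, and the zinc importer genes Slc39a10 (-0.42, SE 0.13) and Slc39a6 (-0.24, SE 0.081) lower per the authors' deposited table. The metallothionein genes Mt1 (-0.15, SE 0.079) and Mt2 (-0.035, SE 0.27) did not pass in the authors' deposited table. Of the polyamine, NAD and selenium list, 5 of 30 members were called higher and 2 lower, with a median of 0.16 (1 higher and 3 lower with length set to 0), with the methyltransferase gene Nnmt (0.57, SE 0.17), Selenom (0.55, SE 0.16) and the polyamine acetylase gene Sat1 (0.45, SE 0.12) higher and the transhydrogenase gene Nnt (-0.56, SE 0.11) and Selenon (-0.38, SE 0.098) lower by the authors' deposited table.

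Lipid genes changed singly. In cholesterol synthesis, 2 of 24 members were called higher and 0 lower, with a median of 0.14 (3 higher and 0 lower with length set to 0), namely the desaturase gene Sc5d (0.43, SE 0.10) and the sterol sensor partner gene Insig1 (0.68, SE 0.14) per the authors' deposited table. In fatty acid synthesis and storage, 1 of 20 members was called higher and 2 lower, with a median of -0.022 (0 higher and 1 lower with length set to 0), with Lipg and the desaturase gene Scd1 (-0.33, SE 0.098) lower and the lipid droplet gene Plin3 (0.27, SE 0.092) higher in the authors' deposited table. Fatty acid oxidation and peroxisomes had Acaa1a (0.66, SE 0.15) and the carnitine carrier gene Slc25a20 (0.56, SE 0.18) higher and Pex13 (-0.45, SE 0.15) lower of 25 members (no call with length set to 0) by the authors' deposited table. In the sphingolipid and phosphoinositide list, 0 of 35 members were called higher and 2 lower, with a median of -0.077 (1 higher and 1 lower with length set to 0), the kinase gene Pip4k2a (-0.67, SE 0.14) and the phosphatase gene Sgpp1 (-0.41, SE 0.12) per the authors' deposited table.

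Genes of the direct answer to UV damage were called at shares near or under the 8.99% of all genes with values of their own. Of p53 targets and partners, 1 of 24 members was called higher and 1 lower, with a median of -0.022. With symbols of shared values counted as well, 4 were called higher and 2 lower. Among them Btg2, an antiproliferative gene, shares its value of 0.52 with Rnf146, and Phlda3, whose product binds membrane lipids, its value of 0.34 with Olfr1339 in the authors' deposited table. Zmat3 shares its value of -0.47 with Angpt2 in the authors' deposited table, and that pair was called lower. Trp53, which encodes p53, stood at -0.55 (SE 0.15) and was called lower, and its inhibitor gene Mdm4 at 0.42 (SE 0.14) and was called higher in the authors' deposited table. The main p53 targets Cdkn1a (0.062, SE 0.19), the CDK inhibitor p21, and Mdm2 (-0.15, SE 0.088) did not pass by the authors' deposited table. Of nucleotide excision repair and UV tolerance genes, 1 of 31 members was called higher and 1 lower, with a median of 0.094 (1 higher and 0 lower with length set to 0). Elof1, an elongation factor that acts when polymerase meets damage, rose (0.54, SE 0.090, adjusted p = 2.47e-07), and the clamp loader gene Rfc1 (-0.37, SE 0.10) fell per the authors' deposited table. The lesion sensor gene Xpc (-0.18, SE 0.19) and the bypass polymerase gene Polh (-0.14, SE 0.11) did not pass in the authors' deposited table. Of 46 other repair and checkpoint genes, none was called, with 0 higher and 2 lower at an unadjusted p under 0.05. Among apoptosis regulators, 2 of 27 members were called higher and 0 lower, with a median of 0.013 (3 higher and 0 lower with length set to 0), Gpx4 and the survival gene Bcl2l1 (0.31, SE 0.086) by the authors' deposited table.

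Among the cell division lists, only mitosis stood well under the 8.99% called among all genes with values of their own. Called histone genes were all higher, while replication and cyclin genes were called in both directions. In DNA replication, 2 of 35 members were called higher and 1 lower, with a median of 0.13 (2 higher and 0 lower with length set to 0), the thymidine kinase gene Tk1 (0.58, SE 0.080) and the histone chaperone gene Asf1b (0.52, SE 0.13) being higher and Rfc1 lower per the authors' deposited table. In mitosis, the motor gene Kif11 (0.58, SE 0.18) was the single called gene of 53 (2 higher with length set to 0), and the proliferation marker Mki67 (-0.045, SE 0.19) did not pass in the authors' deposited table. Among cyclins and CDK inhibitors, 2 of 34 members were called higher and 3 lower, with a median of 0.017 (2 higher and 1 lower with length set to 0), with Mxd3 (0.64, SE 0.14) and the inhibitor gene Cdkn2d (0.53, SE 0.11) higher and Cdk14, Ccni (-0.52, SE 0.078) and Cdk13 (-0.43, SE 0.12) lower by the authors' deposited table. Of histones, 6 of 57 members were called higher and 0 lower, with a median of 0.061 (2 higher and 0 lower with length set to 0). The linker histone gene H1f2 (1.04, SE 0.13), H2bc4 (0.92, SE 0.25), H2aw (0.61, SE 0.14), H2aj (0.60, SE 0.096), H2az2 (0.45, SE 0.12) and H2az1 (0.35, SE 0.073) rose per the authors' deposited table. Histone genes lie in families of like sequence, and most of their RNAs lack a poly(A) tail, so their values depend on the library type, which was not given in the sources used here.

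Genes for RNA processing and chromatin were mostly lower where called. Of splicing factors, 3 of 63 members were called higher and 10 lower, with a median of -0.073, and with length set to 0 the counts were 5 and 8. By the authors' deposited table the largest falls were Tra2b (-0.55, SE 0.10), the polypyrimidine tract binding gene Ptbp3 (-0.47, SE 0.087), Hnrnpu (-0.44, SE 0.076), Rbfox2 (-0.42, SE 0.11), the helicase gene Ddx17 (-0.38, SE 0.072) and Hnrnpm (-0.37, SE 0.10), and the rises were Clk2 (0.73, SE 0.25), Sf3b5 (0.40, SE 0.10) and Hnrnpl (0.35, SE 0.10). In RNA decay and small RNA pathways, 0 of 44 members were called higher and 6 lower, with a median of -0.15, with the let-7 antagonist gene Lin28b (-0.86, SE 0.29), the m6A reader gene Ythdf2 (-0.55, SE 0.15), Elavl1 (-0.48, SE 0.096), the argonaute gene Ago1 (-0.47, SE 0.12) and the deadenylase genes Cnot2 (-0.43, SE 0.11) and Cnot7 (-0.32, SE 0.10) lower in the authors' deposited table. Of these, 3 were called with length set to 0. Chromatin modifiers held 6 of 76 members lower and none higher, and 0 lower with 1 higher with length set to 0. They were Hdac9, Brd1 (-0.47, SE 0.14), Kdm4a (-0.42, SE 0.13), the DNA demethylase gene Tet3 (-0.37, SE 0.093), Kdm2a (-0.35, SE 0.099) and Kat7 (-0.35, SE 0.092) by the authors' deposited table. In the ubiquitin list, 1 of 46 members was called higher and 6 lower, with a median of -0.084 (1 higher and 3 lower with length set to 0), with the cullin genes Cul5 (-0.44, SE 0.095) and Cul3 (-0.36, SE 0.12) and the deubiquitinase gene Usp7 (-0.34, SE 0.086) among the falls per the authors' deposited table. The long noncoding RNAs Snhg20 (0.61, SE 0.13) and Malat1 (0.52, SE 0.090) were higher and Norad (-0.50, SE 0.081) and Tug1 (-0.47, SE 0.099) lower in the authors' deposited table, of 22 with values of their own.

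Matrix genes went both ways. Among collagens, laminins and matrix proteins, 3 of 27 members were called higher and 1 lower, with a median of 0.15: Hspg2 and the fibrillar collagen genes Col5a3 (0.92, SE 0.17) and Col5a1 (0.86, SE 0.23) higher and the laminin gene Lamc1 (-0.42, SE 0.091) lower in the authors' deposited table. These are long genes, and the 3 rises were called with length set to 0, with 4 rises then. Of proteoglycan and hyaluronan genes, 0 of 30 members were called higher and 6 lower, with a median of -0.095 (1 higher and 2 lower with length set to 0). Beside Hapln1 these were the heparan sulfate enzyme genes Extl3 (-0.37, SE 0.092), Hs2st1 (-0.37, SE 0.087) and Ndst1 (-0.25, SE 0.085), the syndecan gene Sdc4 (-0.32, SE 0.086) and the hyaluronan receptor gene Cd44 (-0.21, SE 0.068) by the authors' deposited table. The list of metalloproteases and inhibitors also held other proteases and related proteins. Of its 24 members, 3 were called higher and 4 lower, with a median of 0.099 (3 higher and 3 lower with length set to 0). Htra3 (0.99, SE 0.30), Adamtsl5 (0.64, SE 0.21) and Adam10 rose per the authors' deposited table. Adamts5, Prss23 (-0.53, SE 0.083), Adamts1 (-0.48, SE 0.070) and the inhibitor gene Timp2 (-0.21, SE 0.071) fell per the authors' deposited table. Integrin and focal adhesion genes held 3 of 27 members lower and none higher (2 lower with length set to 0, without Flna), Tns3 (-0.56, SE 0.092), Flna (-0.31, SE 0.10) and Fermt2 (-0.29, SE 0.083) in the authors' deposited table. Of the guidance list, 1 of 35 members was called higher and 5 lower, with a median of 0.0084 (3 higher and 3 lower with length set to 0), with Sema4f (0.81, SE 0.15) higher and Epha3, Neo1 (-0.53, SE 0.095), Efna5 (-0.49, SE 0.12), Plxnb2 (-0.39, SE 0.10) and Plxnc1 (-0.36, SE 0.11) lower by the authors' deposited table.

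The actin and membrane trafficking lists held more falls than rises, as did all genes, while tubulins and motors did not. Of actin cytoskeleton genes, 2 of 48 members were called higher and 7 lower, with a median of -0.058. By the authors' deposited table the falls were led by Cdc42ep3 (-0.82, SE 0.13), Limk1 (-0.46, SE 0.15), Rock1 (-0.45, SE 0.13), the GTPase gene Rac1 (-0.35, SE 0.066), Tpm1 (-0.30, SE 0.070) and the actin-severing gene Cfl1 (-0.28, SE 0.093), and Arpc1b (0.51, SE 0.12) and Tpm4 (0.33, SE 0.091) rose. With length set to 0, 6 falls were called. Of tubulins and motors, 4 of 43 members were called higher and 3 lower, with a median of 0.014 (4 higher and 2 lower with length set to 0). The tubulin genes Tubb6 (0.66, SE 0.14), Tubb4b (0.47, SE 0.070) and Tuba1c (0.40, SE 0.11) and the dynein light chain gene Dynlt1a (0.41, SE 0.13) rose, and Tubb5 (-0.35, SE 0.095) and the kinesin genes Kif5b (-0.47, SE 0.080) and Kif1b (-0.42, SE 0.11) fell per the authors' deposited table. Tubulin genes, and the copies of Dynlt1a, are alike in sequence, so reads can be split between them. In membrane trafficking, 3 of 62 members were called higher and 9 lower, with a median of -0.027, the largest falls being Vps13a (-0.63, SE 0.17), Rab3d (-0.51, SE 0.17), the clathrin heavy chain gene Cltc (-0.44, SE 0.087) and Sec23a (-0.41, SE 0.12) in the authors' deposited table. The clathrin light chain gene Cltb (0.28, SE 0.096), Cope (0.43, SE 0.099) and Tmed3 (0.39, SE 0.10) rose by the authors' deposited table. There were 3 falls and 1 rise with length set to 0.

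The lists of Ca2+ stores and of calcineurin were called about as often as all genes with values of their own (8.99%). Of store-operated Ca2+ entry genes, the pathway that Orai1 and Stim proteins form, none of 10 was called, with 0 in either direction at an unadjusted p under 0.05. Only 3 of the 10 had an SE of at most 0.3, and the changes ran from -0.74 to 0.33. A lack of calls among them therefore does not show a lack of change. Of stores, pumps and mitochondrial uptake, 0 of 21 members were called higher and 2 lower, with a median of -0.074 (2 higher and 1 lower with length set to 0): the mitochondrial uniporter gene Mcu (-0.55, SE 0.19) and its regulator gene Mcur1 (-0.41, SE 0.13) in the authors' deposited table, neither of them called with length set to 0. Of calcineurin, NFAT and CaM kinase genes, 0 of 21 members were called higher and 2 lower, with a median of -0.038 (0 higher and 0 lower with length set to 0), the CREB coactivator gene Crtc1 (-0.44, SE 0.13) and the kinase gene Camkk2 (-0.33, SE 0.11) per the authors' deposited table. Among ion channels, 1 of 31 members was called higher and 3 lower, with a median of 0.034 (1 higher and 1 lower with length set to 0), with the potassium channel gene Kcnk2 (1.21, SE 0.26) higher and Kcnab2 (-0.58, SE 0.11), Tpcn1 (-0.38, SE 0.12) and Clcn4 (-0.37, SE 0.11) lower in the authors' deposited table. In the cAMP and PKA list, 2 of 28 members were called higher and 2 lower, with a median of 0.0029 (2 higher and 0 lower with length set to 0), with Mc1r and the exchange factor gene Rapgef3 (0.67, SE 0.18) higher and Akap11 (-0.46, SE 0.13) and the inhibitory G protein gene Gnai3 (-0.40, SE 0.086) lower by the authors' deposited table.

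**Figure D4:**
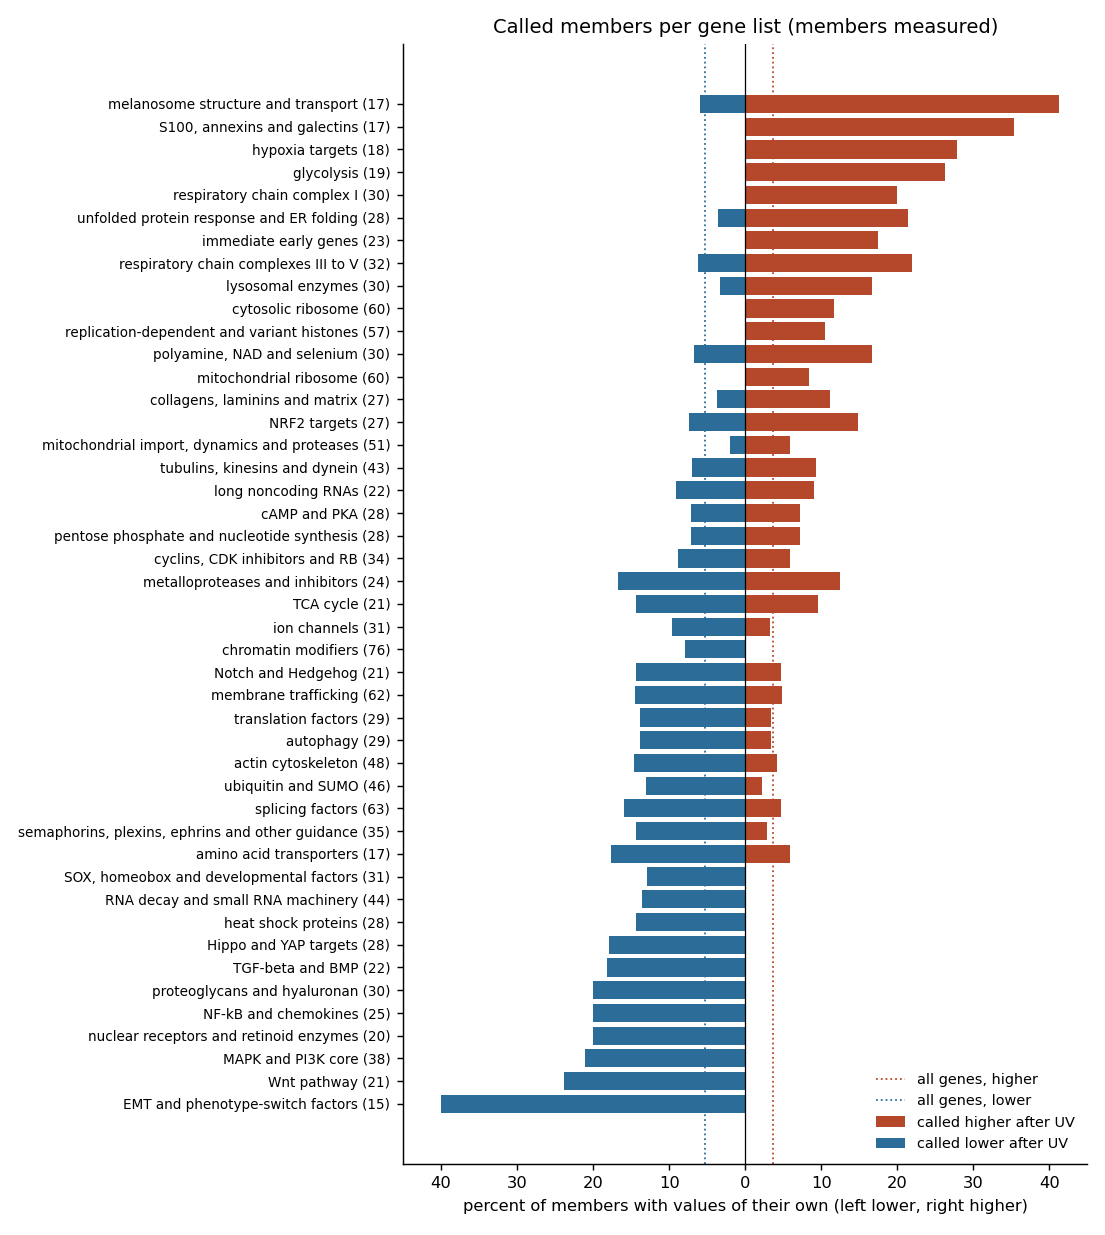
Percent of the members with values of their own that were called higher (right) or lower (left) after 2 weeks of UV, for lists of at least 15 such members and 4 calls, with the number of members in parentheses. Dotted lines give the shares of all 10415 genes, 3.71% higher and 5.28% lower. Melanosome genes stand at the top and EMT factors at the bottom.

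Further groups were called at shares near or under that of all genes. The circadian regulator gene Bhlhe40 (0.94, SE 0.25) was the single called gene of 18 clock genes, and it rose per the authors' deposited table. Among protein kinase C and G protein-coupled receptor genes, 0 of 22 members were called higher and 2 lower, with a median of -0.073 (0 higher and 1 lower with length set to 0), the kinase gene Prkd3 (-0.47, SE 0.13) and the orphan receptor gene Adgra3 (-0.50, SE 0.083) in the authors' deposited table. Of cadherin genes, 1 of 33 members was called higher and 2 lower, with a median of -0.082 (2 higher and 0 lower with length set to 0), with Pcdhb14 (0.82, SE 0.26) higher and Pcdh7 (-0.33, SE 0.095) and the p120 catenin gene Ctnnd1 (-0.35, SE 0.083) lower by the authors' deposited table. Protocadherin copies are alike and can share reads.

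Enzymes that add or remove the sugar O-GlcNAc on proteins moved apart. The transferase gene Ogt (0.88, SE 0.29) rose and the hydrolase gene Oga (-0.45, SE 0.097) fell in the authors' deposited table, in a glycosyltransferase list in which 2 of 45 members were called higher and 1 lower, with a median of 0.074 (3 higher and 1 lower with length set to 0). In nucleotide synthesis, 2 of 28 members were called higher and 2 lower, with a median of 0.041 (1 higher and 1 lower with length set to 0), with Tk1 and the nucleotidase gene Nt5c (0.51, SE 0.13) higher and the first enzyme of purine synthesis, Ppat (-0.33, SE 0.10), and the uridine kinase gene Uck2 (-0.34, SE 0.11) lower per the authors' deposited table. Of 13 growth factor ligands none was called, with 0 in either direction at an unadjusted p under 0.05. In cholesterol efflux Npc2 was called higher and Abca1 lower of 16 genes. Tspan10, a tetraspanin gene, was higher (0.61, SE 0.11, adjusted p = 9.46e-06) and Cd44 lower of 24 surface genes (2 higher and 0 lower with length set to 0) in the authors' deposited table. Of 19 genes often used as references for scaling, Emc7 (0.34, SE 0.091) was called higher, though not with length set to 0, and Ipo8 (-0.63, SE 0.12) and Snrpd3 (-0.29, SE 0.093) lower by the authors' deposited table.

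Changes at 2 weeks were set beside those at 5 weeks of UV for the 10166 genes that share their values with no other symbol in either table. Both comparisons use 1 control library, whose spread enters both errors. A normal test of the difference called 381 genes (3.75%), 146 higher and 235 lower at 2 weeks than at 5 weeks. Of the 935 genes called at 2 weeks and compared, 170 differed from 5 weeks. The genes named here were chosen for their change at 2 weeks, which is a term of that difference.

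Melanin enzymes were higher at both times. Tyr was 0.95 (SE 0.099) at 2 weeks and 1.32 (SE 0.15) at 5 weeks, and Dct was 0.72 (SE 0.081) and 0.85 (SE 0.15) in the authors' deposited tables. None of the 3 enzymes differed between the times at an adjusted p of 0.05, which does not show that they were equal. Mc1r did differ, with 0.41 (SE 0.079) at 2 weeks and -0.65 (SE 0.14) at 5 weeks in the authors' deposited tables (adjusted p = 2.55e-08).

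Part of the genes of amino acid supply and antioxidant defence were lower at 2 weeks than at 5 weeks. The difference was called for 7 of the 20 serine and amino acid enzymes, 6 of the 17 amino acid transporters and 10 of the 27 NRF2 targets in this direction, and for 1 NRF2 target in the other. Atf4 was -0.28 (SE 0.095) at 2 weeks and 0.78 (SE 0.15) at 5 weeks, and Slc38a2 was -0.55 (SE 0.071) and 0.53 (SE 0.13) in the authors' deposited tables. Hspa9 and the nucleolar genes Ncl and Npm1 also differed in this direction, with Hspa9 at -0.26 (SE 0.072) and 0.45 (SE 0.12) in the authors' deposited tables.

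Higher at 2 weeks than at 5 weeks were Nppb, Enho, Timm8b, Tk1, Elof1 and H2aj. Enho was 0.73 (SE 0.082) at 2 weeks and -0.49 (SE 0.18) at 5 weeks, Timm8b 0.74 (SE 0.094) and -0.25 (SE 0.15), and Elof1 0.54 (SE 0.090) and -0.21 (SE 0.13) in the authors' deposited tables. The 5-week values of Enho, Timm8b and Elof1 lie below 0, and none of the 3 was called at that time. The protease gene Prss23 and Axl were lower at both times and more so at 5 weeks, with Prss23 at -0.53 (SE 0.083) and -1.95 (SE 0.17) in the authors' deposited tables.

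**Figure D5:**
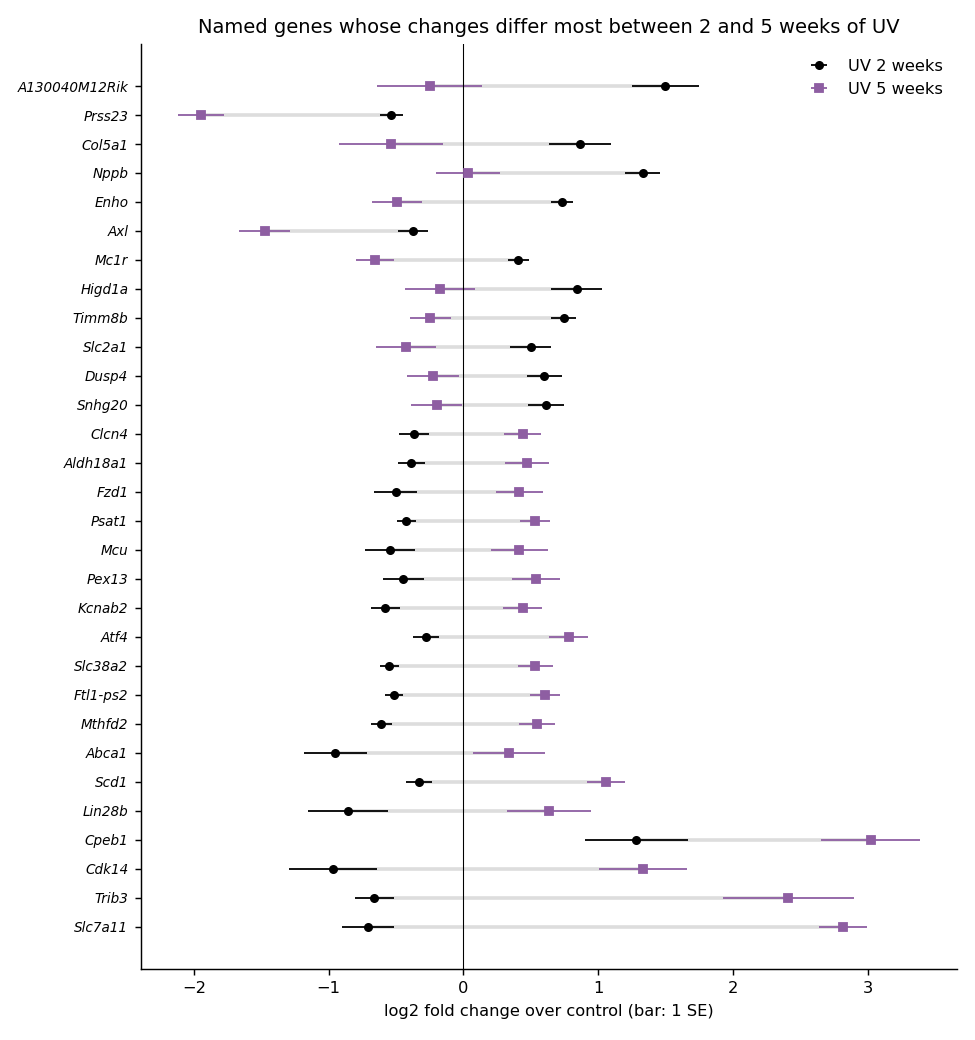
Log2 fold change over control with 1 SE (x axis) at 2 weeks of UV (circles) and 5 weeks (squares) for the 30 named genes with the largest called difference between the times (y axis). For Slc7a11, the lowest gene, the value is -0.71 at 2 weeks and 2.82 at 5 weeks.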

How the data were processed

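B16N mouse melanoma cells after 2 weeks of UV were compared with untreated cells by RNA-seq, 1 library each. The genome build was GRCm38, per the submitters' processing notes, while aligner, counting and test are not given in the sources used here. Per the file headers, the deposited table gives each symbol its log2 fold change, the score of the authors' test and its p-value. It holds no counts, so depth and levels are unknown. All 395 genes with a row in the 2-week table alone had a negative deposited log2 fold change, as a gene with reads after 2 weeks of UV and none in the control would have if the control were the numerator, so the sign was turned. The deposited p-value was the two-sided normal p of the score within 4.97e-08, and the ratio of log2 fold change to score gave the SE. 1 row had no symbol and was not used.

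P-values were adjusted by Benjamini and Hochberg over all 14648 rows. Differences between 2 and 5 weeks were tested with a normal test, both SE added in squares, which counts the spread of the shared control in both. Lists counted genes with values of their own. The members and the 83 lists were chosen with earlier results of these data known. With values of their own and an SE of at most 1, the genes named were the 15 largest called rises and falls, the 10 with the largest test statistic each way, up to 6 called members of each list in each direction, and, with values, members that define a list and did not pass. Some genes under this rule are not reported here. Some further uncalled members, Mlph, and pairs with shared values were named after their values were seen. A planned look at chromosome position and promoter motifs was not run, as no mouse reference was used here. Alternatives were other thresholds, limits on the SE, shared values kept, left out or counted once, and centring of all genes or of each length class. The tools were Python 3.11.15, scipy 1.17.1, numpy 2.4.6, pandas 2.3.3 and matplotlib 3.10.9.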

Additional observations from a re-analysis of the deposited data

Results flagged for a closer look

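In 63 of the named genes the change after 2 weeks of UV differed from that after 5 weeks, in a normal test of that difference with Benjamini-Hochberg adjustment over 10166 genes. Of the 63, 24 were higher and 39 lower at 2 weeks than at 5 weeks. The sign of the change was opposite at the 2 times in 55, of which 13 were called in opposite directions. Each time is 1 library, both share the control library, and the genes were named for their values at 2 weeks, which enter the difference. Each value below is the 2-week change minus the 5-week change on the log2 scale, from the authors' deposited tables, and no cause was tested.

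Lower at 2 weeks were genes of amino acid supply, redox balance and the integrated stress response. The differences were -3.52 for Slc7a11, -3.07 for Trib3, -1.16 for Mthfd2, -1.08 for Slc38a2, -1.06 for Atf4, -0.96 for Psat1, -0.86 for Aldh18a1 and -0.63 for Slc7a5. In lipid and carbon metabolism they were -1.39 for Scd1, -1.29 for Abca1, -0.98 for Pex13, -0.75 for Idh1, -0.70 for Me1 and -0.69 for Nnt. For Ftl1-ps2, the ferritin pseudogene, the difference was -1.12.

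Genes of protein and RNA handling were lower at 2 weeks as well, with differences of -1.49 for Lin28b, -0.76 for Ncl, -0.65 for Npm1, -0.72 for Hspa9, -0.55 for Hsph1, -0.68 for Ssr1, -0.65 for Cnot2, -0.62 for Eif2s2, -0.57 for Eif4g2 and -0.48 for Ptbp3. For Cpeb1, which was higher than control at both times and more so at 5 weeks, the difference was -1.74. In signalling, chromatin and transport they were -2.30 for Cdk14, -0.92 for Fzd1, -0.67 for Ski, -0.53 for Map2k4, -0.67 for Kdm4a, -1.02 for Kcnab2, -0.81 for Clcn4, -0.96 for Mcu, -0.80 for Cltc, -0.78 for Kif1b, -0.57 for Kif5b, -0.56 for Ipo8, which encodes an importin, and -0.53 for Uvrag.

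Higher at 2 weeks were 1.06 for Mc1r, 0.83 for Dusp4, 1.30 for Nppb, 1.23 for Enho, 1.404 for Col5a1 and 1.75 for A130040M12Rik. In metabolism and mitochondria the differences were 0.93 for Slc2a1, 0.47 for Pkm, 1.01 for Higd1a, 0.99 for Timm8b, 0.57 for Cox7b and 0.54 for Mrpl41. In the cell cycle, p53 pathway and chromatin they were 0.67 for Tk1, 0.58 for Cdkn2d, 0.72 for Mdm4, 0.75 for Elof1 and 0.75 for H2aj. Further differences were 0.53 for Rps27l, 0.81 for Snhg20, 0.67 for Dnajb11, 0.69 for Tubb4b and 0.77 for Tpm4. Axl and Prss23 were lower than control at both times and more so at 5 weeks, with differences of 1.10 and 1.41.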

How the results depend on the processing

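Of the 1124 genes called, 735 passed an adjusted p of 0.01 and 296 a Bonferroni adjustment, and 269 were called with a change of at least 1.5-fold and 51 of at least 2-fold. Limits on the SE, other treatments of shared values, the genes with a human length alone, and setting the median change of genes with SE at most 0.3 to 0 gave between 859 and 1373. That last setting, in which a median of -0.024 was set to 0, left 1079 genes, 48.1% of them higher against 40.7%. Setting the median of each length class to 0, an alternative added after seeing the data, left 561. Of the 51 genes called at least 2-fold, 28 were found at an SE of at most 0.3, 21 with Bonferroni adjustment and 7 at 4-fold, against 269 at 1.5-fold. Of the 381 genes that differed between 2 and 5 weeks, 221 passed an adjusted p of 0.01. Of 318 named genes, 101 passed with Bonferroni adjustment, 291 with the median set to 0 and 176 with length set to 0, where 127 did not pass and the others had no length. No named gene changed sign under these alternatives, but balances of higher to lower calls did turn over. At 1.5-fold 63.9% of called genes were higher, and of the 2-fold genes 10 were higher and 11 lower with Bonferroni adjustment. In the polyamine, NAD and selenium list 1 higher and 3 lower were called with length set to 0, against 5 and 2. The calls were 2 and 3 among NRF2 targets, against 4 and 2, and 2 and 1 among Ca2+ stores and pumps, against 0 and 2. Chromatin modifiers had 1 and 0, against 0 and 6, and cadherins 2 and 0, against 1 and 2. With shared values kept, glycolysis gained called falls (2), and heat shock proteins, tRNA synthetases and growth factor ligands had 1 called rise each. Counts of called members moved by over 1.5 times in 41 list counts at an adjusted p of 0.01, 91 at 1.5-fold, 67 with length set to 0, 14 with the median set to 0, 14 at an SE of at most 0.5 and 22 with shared values kept. No replicate could be left out with 1 library a group, and depth is unknown. No paired analysis was possible because each group is 1 library and the deposited tables hold no values per sample.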

Other observations

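Genes named only by family or by a predicted name, grouped by their symbols after the values were seen, showed further differences in the share of calls. Of all genes with values of their own, 3.71% were called higher and 5.28% lower. Of 579 predicted Gm genes with values of their own, 48 (8.29%) were called higher and 11 (1.90%) lower, and of 103 symbols marked as pseudogenes 13 (12.6%) were called higher and 5 lower. Many of these are copies of short genes and can share reads with them. Of 98 genes and pseudogenes with ribosomal protein symbols, 16 (16.3%) were called higher and 1 lower, and of the 65 with a length 3 were called higher and 1 lower with length set to 0. Zinc finger genes of the Zfp series, mostly transcription repressors, held 9 of 298 (3.02%) called lower and none higher. Both shares are under those of all genes, and few Zfp genes had a length. Deubiquitinases of the Usp series held 7 of 36 (19.4%) lower and none higher, and 1 lower with length set to 0. Rab GTPases, which direct vesicles, held 6 of 52 lower and none higher, and 3 lower with length set to 0. The mitochondrial ribosomal RNA gene mt-Rnr2 (-0.88, SE 0.16), named after its value was seen, was called lower in the authors' deposited table, while none of the 13 mitochondrially encoded genes of the list was called.

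Symbols that share all their values could not be given to a gene. The largest sets held 499, 337, 186, 125 and 51 symbols, each with an SE above 1 and an adjusted p of 0.959, and 942 of the 1119 sets were pairs. Of the 779 sets with an SE of at most 1, 777 were shared in all 3 mouse tables. Of the sets, 93 were called, with 188 symbols, 72 higher and 116 lower. Among the called pairs, named after their values were seen, Neat1 and Pde4dip stood at 0.91, Cdk2 and Pus10 at 0.48, Slc16a1 and Sos1 at -0.79 and Cdx2 and Sema6a at -0.87 in the authors' deposited table.

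The human tables held 420 symbols in both. Of the 420, 418 had a deposited p under 0.05 in WM983 and 42 in UACC257, so they are not a sample of all measured genes. A match to a B16N gene with values of its own was found for 220. Of these, 14 (6.36%) were called at 2 weeks of UV in B16N, beside 8.99% of all such genes. No direction is compared, since the numerator of the human tables was not given.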
